A study of Mus musculus with 27 samples.

Results

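The metallothioneins and the cell's zinc and copper handling were followed through 6 genes, chosen by name because metabolites of disulfiram (DSF) bind both metals. They were Mt1 and Mt2, Mtf1, Slc30a1, Slc31a1 and Atp7a, 6 of the 54532 genes with counts. The choice was made with earlier results of these data known. By the gene positions deposited with the counts (mm10) they all lie on the plus strand: Mt1 (ENSMUSG00000031765) at chr8:94179082-94180327, Mt2 (ENSMUSG00000031762) at chr8:94172664-94173568, Mtf1 (ENSMUSG00000028890) at chr4:124802104-124849800, Slc30a1 (ENSMUSG00000037434) at chr1:191906767-191913247, Slc31a1 (ENSMUSG00000066150) at chr4:62360727-62391769 and Atp7a (ENSMUSG00000033792) at chrX:106027276-106124926. A further 41 genes of zinc and copper transport, copper chaperoning and copper enzymes made up a list of 47 with them. All samples were cultured splenic B cells of WT C57BL/6 mice, isolated with a negative-selection kit, with RNA taken at 3 h. The paper's figure legends count the 3 h from the stimulus and describe the cells with DSF or ibrutinib as pretreated. The replicated experiment had 5 groups of 4 libraries each. They were unstimulated cells (NS), cells given LPS or IL-4+anti-CD40 as a stimulus, and cells given either stimulus and 1 μM DSF. DSF is a drug for alcohol dependence that inhibits aldehyde dehydrogenase. A second experiment held 1 library each of these 5 conditions and of both stimuli with 1 μM ibrutinib, an inhibitor of the kinase Btk. Libraries with a stimulus and no inhibitor are called vehicle libraries, as in the labels, which give the abbreviation DMSO for the second experiment alone.

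Metallothioneins are small cysteine-rich proteins that bind zinc and copper in the cytosol. Their genes are among the classical targets of MTF1, a zinc-sensing transcription factor that binds metal response elements in promoters and is active when free zinc rises. The plasma membrane zinc exporter encoded by Slc30a1 (ZnT1) is another of its classical targets, so that metallothionein and exporter transcripts are widely used as a readout of cytosolic zinc. Copper enters cells through CTR1, the product of Slc31a1, and is pumped into the secretory pathway or out of the cell by the ATPase encoded by Atp7a.

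The promoters of Mt1, Mt2, Slc30a1 and Atp7a are shown because they were the 4 of the 6 genes with the core of the metal response element near the start. The core was searched as TGCACNC or TGCGCNC on both strands, from 250 bases before to 50 bases after the RefSeq start (GRCm38.p6), and is in capitals in the 250 bases before the start, printed 5′ to 3′. Mt1 lies on the plus strand of chromosome 8 and its upstream bases, chr8:94178839-94179088, held 1 core, 23 bases before the start, with 2 more after it. Mt2, on the same strand at chr8:94172368-94172617, held 3 upstream and 1 after the start. The upstream bases of Slc30a1 (plus strand, chr1:191906531-191906780) held 1, with 1 more after the start, and those of Atp7a (plus strand, chrX:106026974-106027223) held 2.

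Mt1: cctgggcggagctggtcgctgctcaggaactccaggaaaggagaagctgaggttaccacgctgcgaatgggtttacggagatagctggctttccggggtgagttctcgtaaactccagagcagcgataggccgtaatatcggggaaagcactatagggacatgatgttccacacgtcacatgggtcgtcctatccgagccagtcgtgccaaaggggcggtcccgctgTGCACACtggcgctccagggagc
Mt2: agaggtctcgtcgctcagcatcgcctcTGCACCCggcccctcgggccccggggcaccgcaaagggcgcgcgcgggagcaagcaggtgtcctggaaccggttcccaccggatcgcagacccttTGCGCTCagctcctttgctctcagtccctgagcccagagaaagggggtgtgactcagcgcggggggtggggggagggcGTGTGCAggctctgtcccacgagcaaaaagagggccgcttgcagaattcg
Slc30a1: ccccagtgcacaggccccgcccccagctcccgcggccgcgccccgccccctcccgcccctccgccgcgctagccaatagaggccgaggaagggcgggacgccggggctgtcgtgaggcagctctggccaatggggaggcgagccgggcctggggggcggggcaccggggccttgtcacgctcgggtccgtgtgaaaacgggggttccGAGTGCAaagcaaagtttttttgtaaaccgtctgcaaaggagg
Atp7a: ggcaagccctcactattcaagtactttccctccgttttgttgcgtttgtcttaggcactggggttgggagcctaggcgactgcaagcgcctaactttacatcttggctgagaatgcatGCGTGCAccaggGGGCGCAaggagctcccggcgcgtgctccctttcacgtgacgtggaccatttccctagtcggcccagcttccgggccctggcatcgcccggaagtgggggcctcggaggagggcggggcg

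Of 32851 promoters of the same length, 25.7% held at least 1 such core, 7.11% at least 2 and 1.97% at least 3. Within the 300 bases Mt1 thus had 3, Mt2 4, and Slc30a1 and Atp7a 2 each. No core lay in these windows of Mtf1 and Slc31a1. A match is a run of letters and not a measured binding site.

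Total counts were between 17804851 and 23632992 per library in the replicated experiment and between 16049295 and 24619776 in the second. The libraries had the RNA of B cells: all 7 B cell markers were at 1 CPM (count scaled to library size) or more in every library, and their CPM summed to between 9365 and 16460 in the replicated experiment. The sums were 2.16 to 9.66 CPM for 6 T cell markers, 2.13 to 15.2 for 5 NK cell markers, 7.36 to 38.0 for 5 neutrophil markers and 1.28 to 15.5 for 6 erythroid markers. The 9 myeloid markers moved with the groups. They summed to 804 to 842 CPM in NS, 752 to 795 with LPS, 506 to 531 with LPS plus DSF, 318 to 358 under IL-4+anti-CD40 and 370 to 441 under IL-4+anti-CD40 and DSF, and none was at 0. The 4 plasma cell markers summed to 373 to 434 CPM in NS, 245 to 262 with LPS, 329 to 372 with LPS plus DSF, 376 to 391 under IL-4+anti-CD40 and 427 to 450 under IL-4+anti-CD40 and DSF, and none was at 0. The T cell sum was 3.21 to 4.25 CPM with LPS, 4.48 to 6.41 with LPS plus DSF, 2.16 to 3.27 under IL-4+anti-CD40 and 4.38 to 5.57 under IL-4+anti-CD40 and DSF. The markers of a set did not all move alike. With LPS, Trac was higher with DSF (3.72 to 5.44 CPM against 1.04 to 1.75), and Cd3g and Cd8a were lower. Of the myeloid markers, Itgam and Cd68 were then higher, and Mpeg1 (348 to 363 CPM against 587 to 617), Lyz2, Csf1r and Adgre1 lower. Of the plasma cell markers, Prdm1 and Xbp1 were higher and Sdc1 lower. The ranges of the other markers of these sets overlapped. In the second experiment the myeloid sum was 350 CPM in NS, 257 to 287 in the 4 libraries with a stimulus and no DSF and 113 in each DSF library, and the erythroid sum was 26.1 to 54.3 CPM without DSF and 60.8 to 70.2 with it. There the plasma cell sum was 253 to 358 CPM without DSF and 497 to 502 with it, the T cell sum 4.16 to 6.54 and 9.18 to 11.9, and the neutrophil sum 0.443 to 1.66 and 3.29 to 4.09. The part of these cells in the results was not tested, and in bulk libraries fewer cells of a type and less RNA per cell cannot be told apart.

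Libraries of a group were not equally alike. Among genes of 2 CPM or more on average, 14.2% had a 2-fold range or more across the 4 NS libraries, 4.15% across those under IL-4+anti-CD40 and 0.917% across those with LPS. In NS, libraries 1 and 2 deviated from the group mean together (r = 0.73 across genes), as did 3 and 4 (r = 0.67). The same values were 0.14 and 0.10 under IL-4+anti-CD40 and -0.24 and -0.31 with LPS. They were -0.39 and -0.35 with LPS plus DSF and -0.21 and -0.14 under IL-4+anti-CD40 and DSF. Deviations from a mean of 4 libraries are negatively correlated when libraries vary independently. A value near 0 thus does not show that a split is absent. The values under IL-4+anti-CD40 were above those of the other groups with a stimulus. How far the split ran through all genes there was not tested. For Mt1 and Slc30a1, libraries 3 and 4 stood apart from 1 and 2 in both groups that had a stimulus without DSF. The listed gene Slc39a10 was split in both groups too, with 3 and 4 lower. Under IL-4+anti-CD40 Slc39a4, Sod1 and Atp7a were also split, among other listed genes, with 3 and 4 higher for these. Values are therefore also given for libraries 1 and 2 alone and for 3 and 4 alone, a choice made after seeing the data. No label says whether same-numbered libraries share a mouse or a day. Since the split was made on sight of Mt1 and Slc30a1, values within it are given for these 2 genes as a description, without p-values. For some other genes adjusted p-values within the split are printed, and counts of calls within it include Mt1 and Slc30a1. These rest on 2 libraries a group in a split made after seeing the data, and they settle no call.

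DSF raised Mt1 the most of the 5 genes tested, and Mt1 was the gene whose level without DSF varied most. In the deposited FPKM (fragments scaled for gene length and library size), Mt1 was at 3.34, 3.06, 3.88 and 4.68 in the NS libraries 1 to 4. With LPS it was at 2.08, 1.90, 22.7 and 12.7, and under IL-4+anti-CD40 at 1.35, 4.32, 56.4 and 69.0. Under both stimuli libraries 1 and 2 thus lay near or below NS while 3 and 4 lay above every NS library. With LPS plus DSF Mt1 was at 99.4, 120, 105 and 126 FPKM, and under IL-4+anti-CD40 and DSF at 201, 202, 233 and 210. Every library with DSF was above every library without it. The mean of libraries 3 and 4 was 8.91 times that of 1 and 2 with LPS and 22.1 times under IL-4+anti-CD40, and with DSF these ratios were 1.05 and 1.10. The group means were 3.74 ± 0.714 FPKM in NS, 9.85 ± 9.94 with LPS, 32.8 ± 34.96 under IL-4+anti-CD40, 112 ± 12.3 with LPS plus DSF and 212 ± 15.2 under IL-4+anti-CD40 and DSF (SD, n = 4 each).

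**Figure D1:**
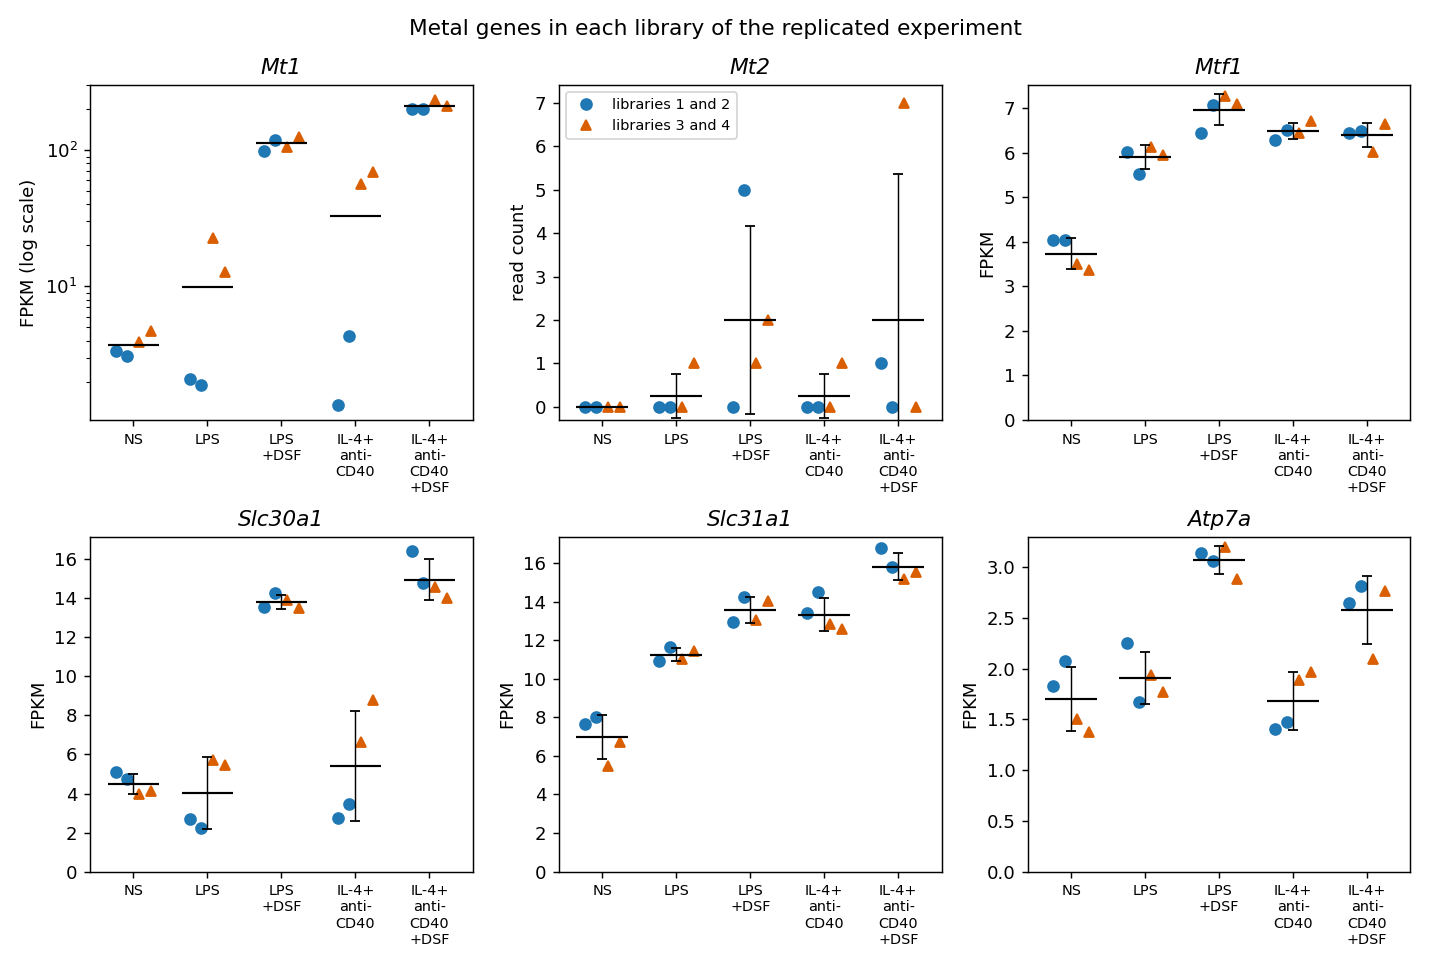
Levels of the 6 genes in the 5 groups of the replicated experiment, as FPKM (Mt1 on a log axis) and, for Mt2, as read counts; each point is a library, lines are group means and error bars the SD (n = 4; none for Mt1). Mt1 was between 99.4 and 233 FPKM in the 8 libraries with DSF and between 1.35 and 69.0 in the 12 without, and libraries 3 and 4 (triangles) stood apart for Mt1 and Slc30a1 under both stimuli without DSF.

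By edgeR's quasi-likelihood test, Mt1 rose with DSF by 3.59 on the log2 scale in LPS-stimulated cells (SE 0.32, adjusted p = 3.02e-10), which is 12.04-fold. In IL-4+anti-CD40-stimulated cells it rose by 2.67 (SE 0.79, adjusted p = 0.0122), which is 6.35-fold. Within libraries 1 and 2 the rise was 54.8-fold with LPS and 70.6-fold under IL-4+anti-CD40, and within libraries 3 and 4 it was 6.51-fold and 3.49-fold. The size of the rise therefore depended on which vehicle libraries entered, and its direction did not. Without LPS library 3 the log2 value with LPS was 4.42, and without IL-4+anti-CD40 library 4 that under IL-4+anti-CD40 was 3.32. Measured from NS, where the libraries were closer together, Mt1 was 30.2-fold higher with LPS plus DSF and 57.0-fold higher under IL-4+anti-CD40 and DSF (edgeR, adjusted p = 5.98e-08 and 6.32e-08).

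DSF-treated cells had more Mt1 under IL-4+anti-CD40 than with LPS, by 1.85-fold (log2 -0.89 for LPS against IL-4+anti-CD40, SE 0.07, edgeR adjusted p = 2.58e-08), and the libraries did not overlap. This difference was not past the threshold when all 20 libraries shared 1 estimate of the spread (log2 -0.91, edgeR adjusted p = 0.383). The DSF effect itself did not differ detectably between the stimuli for Mt1: the difference was 0.89 on the log2 scale with an SE of 1.00 (edgeR adjusted p = 0.607). In libraries 3 and 4 alone that difference was 0.92, and in libraries 1 and 2 alone it was -0.34.

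The effect of LPS alone on Mt1 was not past the threshold and that of IL-4+anti-CD40 alone was. The LPS effect was 1.40 on the log2 scale (SE 0.73, edgeR adjusted p = 0.126). The log2 value was -0.65 in libraries 1 and 2 alone and 2.09 in libraries 3 and 4 alone. Without LPS library 2 the LPS effect was 1.76 (adjusted p = 0.0458). IL-4+anti-CD40 raised Mt1 by 3.15 over all libraries (SE 1.03, edgeR adjusted p = 0.0243), although the groups overlapped. The log2 value was 3.92 in libraries 3 and 4 and -0.17 in libraries 1 and 2. Leaving out NS library 1, 2 or 3 or IL-4+anti-CD40 library 3 or 4 took this call away, with adjusted p-values from 0.0504 to 0.0689.

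Mt2 had almost no counted reads. It had 0 reads in all 4 NS libraries, 0, 0, 0 and 1 with LPS, 0, 0, 0 and 1 under IL-4+anti-CD40, 0, 5, 1 and 2 with LPS plus DSF, and 1, 0, 7 and 0 under IL-4+anti-CD40 and DSF. It was too low for the tests in every comparison, which left 5 of the 6 genes tested, and a count of 0 allows up to 3 reads in a library. Of the 588 exonic bases of Mt2, 432 (73.5%) lie under exons of Gm45774, a gene annotated as antisense on the opposite strand (chr8:94170748-94173412), and 156 are free. Gm45774 had between 0 and 5 reads per library. Across the genome, 35 protein-coding genes are wholly covered by exons on the opposite strand, and all 35 had 0 reads in all 20 libraries, against 26.5% of the 15563 protein-coding genes with no such overlap. Of the 155 such genes covered by over 50 but under 100 percent, 23 (14.8%) were at 0 in all 20 libraries and 49.0% had a mean of 10 reads or more. Whether the overlap lowered the counts of Mt2 was not tested, so they are not read as its level. Of the other genes, Mtf1 shares 8.09% and Slc30a1 8.92% of its exonic bases with a gene on the opposite strand, and Mt1, Slc31a1 and Atp7a share none. Mt1 is divided by 1246 bases in its FPKM, the whole length of the gene, so its level beside that of the other genes depends on that length.

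Mtf1, which encodes the zinc-sensing factor, changed little with DSF. It was at 4.04, 4.04, 3.50 and 3.37 FPKM in NS, at 6.01, 5.52, 6.13 and 5.94 with LPS and at 6.28, 6.50, 6.43 and 6.71 under IL-4+anti-CD40. With DSF it was at 6.45, 7.06, 7.26 and 7.10 under LPS and at 6.45, 6.49, 6.01 and 6.65 under IL-4+anti-CD40. Every stimulated library lay above every NS library, with or without DSF. LPS raised Mtf1 by 0.67 (SE 0.07) and IL-4+anti-CD40 by 0.82 (SE 0.08) on the log2 scale (edgeR adjusted p = 5.33e-05 and 2.66e-05). DSF raised it by 0.26 with LPS (SE 0.05, adjusted p = 8.37e-05), while under IL-4+anti-CD40 the value was -0.04 (SE 0.05, adjusted p = 0.565). The DSF effects on Mtf1 under the stimuli differed by 0.29 (SE 0.07, edgeR adjusted p = 0.00948), which was not past the threshold in libraries 1 and 2 alone (0.24, adjusted p = 0.145). Scaled by total counts, which moved the median of all genes from 0.00 to -0.21, the rise of Mtf1 with LPS plus DSF was 0.05 (adjusted p = 0.384), and the value under IL-4+anti-CD40 and DSF was -0.19 (adjusted p = 0.0125). In the order of the group means NS was lowest and LPS with DSF highest, and IL-4+anti-CD40 with and without DSF did not differ beyond their spread.

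Slc30a1, the zinc exporter, rose with DSF under both stimuli, and in both vehicle groups it was higher in libraries 3 and 4, as Mt1 was. In NS, libraries 3 and 4 were the higher ones for Mt1 and the lower ones for Slc30a1. Its levels were 5.09, 4.75, 3.99 and 4.11 FPKM in NS, 2.69, 2.24, 5.74 and 5.47 with LPS, and 2.72, 3.48, 6.63 and 8.78 under IL-4+anti-CD40. Libraries 1 and 2 of both stimulated groups lay below NS and libraries 3 and 4 above. With DSF the levels were 13.5, 14.3, 13.9 and 13.5 under LPS and 16.4, 14.8, 14.6 and 14.0 under IL-4+anti-CD40, all above every library without DSF. The rise with DSF was 3.52-fold with LPS (log2 1.82, SE 0.16, edgeR adjusted p = 3.96e-10) and 2.73-fold under IL-4+anti-CD40 (log2 1.45, SE 0.29, adjusted p = 0.00109). It was 5.62-fold and 5.00-fold within libraries 1 and 2 and 2.46-fold and 1.83-fold within libraries 3 and 4.

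Neither stimulus alone moved Slc30a1 past the threshold over all libraries (LPS log2 -0.14, edgeR adjusted p = 0.693; IL-4+anti-CD40 0.29, adjusted p = 0.465). Within libraries 1 and 2 the log2 values were -0.97 with LPS and -0.65 under IL-4+anti-CD40, and within libraries 3 and 4 they were 0.50 and 0.97. The 2 groups with DSF did not differ detectably in Slc30a1 (log2 -0.09, SE 0.05, edgeR adjusted p = 0.187), and scaled by total counts the value was -0.22 (adjusted p = 0.00368).

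**Figure D2:**
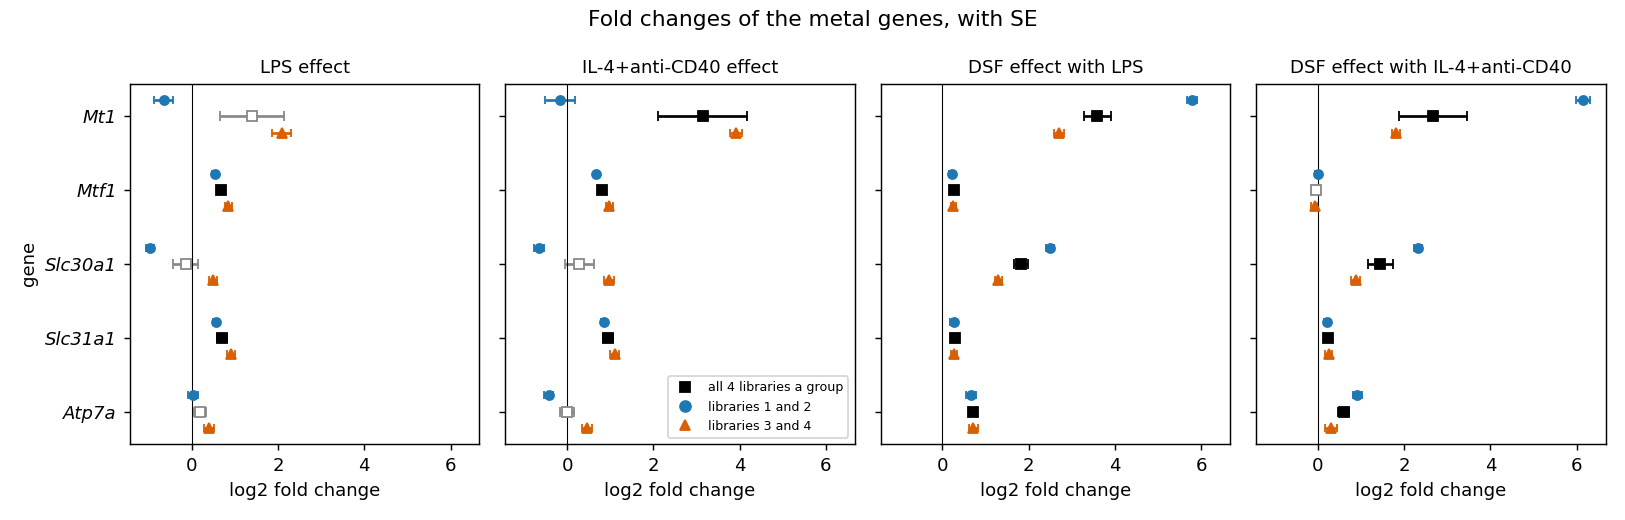
Log2 fold changes of the 5 tested genes in 4 comparisons, with SE, from all 4 libraries a group (squares; filled where the adjusted p is under 0.05), from libraries 1 and 2 (circles) and from libraries 3 and 4 (triangles). The DSF effects on Mt1 and Slc30a1 are above 0 in each set of libraries, whereas the effects of the stimuli alone on Slc30a1 lie on opposite sides of 0 in the 2 sets.

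Slc31a1, the copper importer, rose with stimulation and a little further with DSF. It was at 7.65, 8.04, 5.49 and 6.71 FPKM in NS, at 10.9, 11.6, 11.03 and 11.4 with LPS and at 13.4, 14.5, 12.8 and 12.6 under IL-4+anti-CD40. DSF libraries were at 13.0, 14.3, 13.0 and 14.0 with LPS and at 16.8, 15.8, 15.2 and 15.5 under IL-4+anti-CD40. No DSF library overlapped its own stimulus. The rise was 1.63-fold with LPS and 1.94-fold under IL-4+anti-CD40 against NS (edgeR adjusted p = 0.000525 and 0.000129). DSF added 1.22-fold with LPS (log2 0.29, SE 0.05, adjusted p = 1.78e-05) and 1.17-fold under IL-4+anti-CD40 (log2 0.23, SE 0.06, adjusted p = 0.00515). Scaled by total counts, both DSF values for Slc31a1 fell to 0.08 and were not past the threshold (adjusted p = 0.154 and 0.266), with the median of all genes at -0.21 and -0.16. Slc31a1 was lower with LPS than under IL-4+anti-CD40, both without DSF (log2 -0.20, adjusted p = 0.0122) and with it (log2 -0.20, adjusted p = 0.0063). These calls of Slc31a1 were lost with all 20 libraries in one fit (edgeR adjusted p = 0.0719 and 0.052) and in libraries 3 and 4 alone (0.0931 and 0.103), and the first also with no filter on low counts (adjusted p = 0.0527). IL-4+anti-CD40 without DSF and LPS with DSF were neighbours in the order of means, overlapped and were not tested against each other.

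Atp7a, the copper-transporting ATPase, had the lowest group mean per length of the 5 tested genes in all 5 groups and rose with DSF. It was at 1.83, 2.08, 1.51 and 1.38 FPKM in NS, 2.25, 1.67, 1.94 and 1.77 with LPS, and 1.40, 1.47, 1.88 and 1.97 under IL-4+anti-CD40. With DSF it was at 3.14, 3.06, 3.20 and 2.88 under LPS and at 2.65, 2.82, 2.09 and 2.76 under IL-4+anti-CD40. The 3 groups without DSF overlapped, and no library with DSF reached down into the group with the same stimulus alone. DSF raised Atp7a 1.63-fold with LPS (log2 0.71, SE 0.08, edgeR adjusted p = 4.87e-08) and 1.51-fold under IL-4+anti-CD40 (log2 0.60, SE 0.14, adjusted p = 0.00254). The latter was 0.91 in libraries 1 and 2 (adjusted p = 2.55e-07) and 0.31 in libraries 3 and 4, where it was not past the threshold (adjusted p = 0.0752). Neither stimulus alone moved Atp7a past the threshold over all libraries (log2 0.18 with LPS and 0.01 under IL-4+anti-CD40; adjusted p = 0.292 and 0.963). The value under IL-4+anti-CD40 was -0.43 in libraries 1 and 2 and 0.46 in libraries 3 and 4, and that with LPS was 0.04 and 0.40. Under IL-4+anti-CD40 Atp7a was itself higher in libraries 3 and 4 than in 1 and 2. Its values within the split therefore describe these libraries and settle no call. With DSF, Atp7a was higher under LPS than under IL-4+anti-CD40 (log2 0.28, SE 0.09, adjusted p = 0.0161), which was 0.15 and not past the threshold when scaled by total counts (adjusted p = 0.193).

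Counted together, DSF raised 5 of the 5 tested genes with LPS and 4 of 5 under IL-4+anti-CD40, and lowered none. Such calls were common in these data: of all genes tested, 35.1% were higher and 36.0% lower with DSF and LPS, and 30.1% and 31.6% with DSF and IL-4+anti-CD40. Scaled by total counts, 34.2% and 35.9% of all genes called were higher with DSF under LPS and under IL-4+anti-CD40, against 49.4% and 48.8% with TMM. A minimum change of 2-fold in the test itself left 2 of the 5 genes higher with LPS, Mt1 and Slc30a1 (7.19% of all genes), and none under IL-4+anti-CD40 (3.71%). Against NS, LPS raised 2 of the 5 genes (29.6% of all genes were higher) and IL-4+anti-CD40 raised 3 (30.4%). For the difference of the DSF effect between the stimuli, 1 of 5 was called, Mtf1, beside 14.9% of all genes. DSF-treated cells had all 5 above NS with either stimulus, where 34.3% (LPS) and 33.4% (IL-4+anti-CD40) of all genes were higher. LPS against IL-4+anti-CD40 gave 1 call, Slc31a1 (39.7% of all genes in either direction), and with DSF in both it gave 4 (45.1%). Of these 4, Mtf1 (log2 0.15, edgeR adjusted p = 0.0343) was not past the threshold without LPS plus DSF library 2, 3 or 4 or without library 1, 2 or 3 under IL-4+anti-CD40 and DSF (adjusted p from 0.0533 to 0.109), nor when scaled by total counts (0.02, adjusted p = 0.817).

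Of the 5 genes, 3 moved by 2-fold or more with DSF in the second experiment (18.6% and 19.8% of all genes were at least 2-fold higher with LPS and IL-4+anti-CD40) and 0 with ibrutinib. Mt1 was at 4.24 FPKM in NS, 2.91 with LPS, 2.61 under IL-4+anti-CD40, 121 with LPS plus DSF and 145 under IL-4+anti-CD40 and DSF. With ibrutinib it was at 1.87 under LPS and 2.48 under IL-4+anti-CD40. There, both stimuli without DSF lay below NS. The ratio of DSF to the stimulus alone for Mt1 was 37.7-fold with LPS (2595 against 67 reads, 95% exact counting interval 30.3 to 50.04) and 50.6-fold under IL-4+anti-CD40 (2587 against 60 reads, 40.4 to 68.5). There was 1 library per condition, so these ratios have no replicate check and the intervals cover counting error only. Ratios are of TMM-normalized CPM with a prior count of 2.

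Slc30a1 was 3.18-fold higher with DSF and LPS (613 against 191 reads, 2.72 to 3.79) and 3.64-fold higher with DSF and IL-4+anti-CD40 (576 against 190, 3.11 to 4.34). Atp7a was 3.25-fold higher (573 against 175 reads, 2.75 to 3.89) and 2.83-fold higher (461 against 196, 2.40 to 3.38). Slc31a1 was 1.36-fold and 1.28-fold higher (1134 against 833 and 1040 against 981 reads). Mtf1 was at log2 ratios of -0.22 with LPS and -0.43 under IL-4+anti-CD40, where the median gene was at -0.14 and -0.11; in the replicated experiment the same values of Mtf1 were 0.26 and -0.04. Mt2 had 7 and 5 reads with DSF under LPS and IL-4+anti-CD40 and 0 in the other 5 libraries. Mt1, Slc30a1 and Atp7a were thus past 2-fold under both stimuli, 3 of the 5 genes with a mean of 10 reads or more.

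With ibrutinib, 0 of the 5 were past 2-fold in either direction, where 5.28% of all genes were with LPS and 3.94% under IL-4+anti-CD40. The log2 ratios of ibrutinib to the stimulus alone ran from -0.57 for Mt1 with LPS (57 against 67 reads) to 0.19 for Atp7a with LPS (256 against 175). The counting interval of the Mt1 ratio with LPS was 0.459 to 0.962, and under IL-4+anti-CD40 it was 0.682 to 1.37. For Slc30a1 these intervals were 0.877 to 1.29 and 0.746 to 1.10, and for Atp7a 0.941 to 1.40 and 0.894 to 1.29. DSF and ibrutinib were given at the same dose of 1 μM. Against NS, the stimuli alone took Slc31a1 to 1.72-fold with LPS and 2.01-fold under IL-4+anti-CD40 and Mtf1 to 1.499-fold and 1.63-fold, so that 0 and 1 of the 5 genes were past 2-fold, where 18.5% and 24.4% of all genes were.

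**Figure D3:**
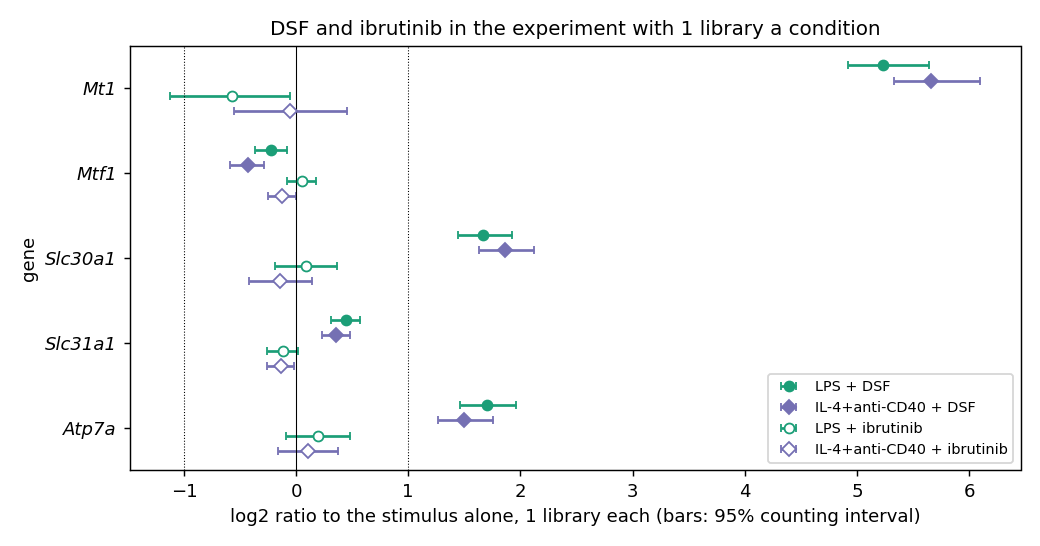
Log2 ratios of DSF (filled) and ibrutinib (open) to the stimulus alone for the 5 genes in the second experiment, 1 library per condition, with 95% counting intervals and dotted lines at 2-fold. With DSF, Mt1, Slc30a1 and Atp7a lie beyond 2-fold under both stimuli (log2 up to 5.66), and with ibrutinib no gene does (-0.57 to 0.19).

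Among 11719 protein-coding genes with a mean of 10 reads or more, the gene whose pattern over the 20 libraries was most like Mt1 was Slc30a1 (r = 0.97 on log2 CPM), and the gene most like Slc30a1 was Mt1. Next to Mt1 came Tmco4 (r = 0.94), Cracr2b (0.94), Hspa1b, an inducible Hsp70 whose near-identical copy Hspa1a may share its reads (0.93), and Xk (0.93). Next to Slc30a1 came Grtp1 and Fam219a (both 0.95). Atp7a was most like Taok1 (r = 0.96), Trio (0.96) and the acetyltransferase gene Crebbp (0.95), with an r of 0.75 to Mt1 and 0.80 to Slc30a1. Mtf1 was most like Lrrc59 (r = 0.99), Cdv3 (0.98) and Etf1, a translation termination factor (0.98), and Slc31a1 was most like Mapkapk3, Slc25a33 and the chaperonin subunit Cct4 (all 0.98). Mtf1 and Slc31a1 had an r of 0.92 to each other and of 0.55 and 0.61 to Mt1. These values describe 20 libraries that fall into 5 groups and share one normalization, so they carry no test.

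**Figure D4:**
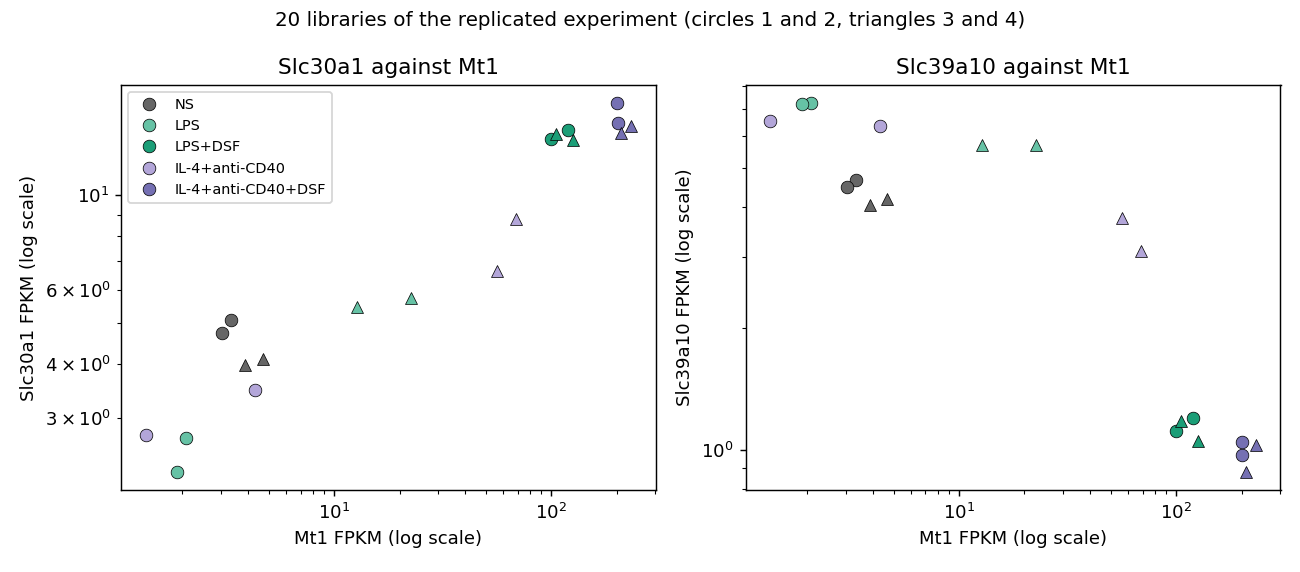
FPKM of Slc30a1 (left) and of Slc39a10 (right) against Mt1, all on log axes, in the 20 libraries of the replicated experiment, coloured by group. Slc30a1 runs from 2.24 to 16.4 FPKM and is highest in the 8 libraries with DSF, as is Mt1. Slc39a10 is lowest in these libraries, at 0.881 to 1.198.

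Of the 47 listed genes, 35 could be tested for the DSF effect with LPS, of which 11 rose and 17 fell (35.1% and 36.0% of all genes). Under IL-4+anti-CD40, 34 could be tested, of which 11 rose and 13 fell (30.1% and 31.6% of all genes). The 5 tested of the 6 genes are included in both. The list had a median log2 fold change of -0.24 and -0.20, and that of all genes tested was 0.00 and -0.02. Scaled by total counts, 20 fell and 7 rose under IL-4+anti-CD40, where 5832 and 3262 of all 14275 genes did. The transcripts of 5 listed genes, Mt4, Slc30a8, Slc39a12, Sco2 and Heph, were at 0 in all 27 libraries. Of the exonic bases of Sco2, 829 are shared with a gene on the opposite strand and 856 with another on the same strand.

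Zinc exporters moved in both directions, as genes in general did. Of the 6 ZnT genes tested, 2 rose and 4 fell with DSF under each stimulus. Of all genes, 35.1% rose and 36.0% fell with LPS, and 30.1% and 31.6% under IL-4+anti-CD40. Beside Slc30a1, Slc30a7 rose, 1.58-fold with LPS and 1.32-fold under IL-4+anti-CD40 (edgeR adjusted p = 1.29e-11 and 0.00263); its product loads zinc into the early secretory pathway.

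Zinc importers of the ZIP family moved in both directions. Of the 13 tested, 4 rose and 7 fell with LPS, and 3 rose and 6 fell under IL-4+anti-CD40. The shares of all genes were 35.1% and 36.0% with LPS, and 30.1% and 31.6% under IL-4+anti-CD40. Slc39a10, a plasma membrane importer and a gene that MTF1 is known to repress, fell the most in the replicated experiment. It was at 7.24, 7.23, 5.69 and 5.71 FPKM with LPS and at 1.11, 1.198, 1.18 and 1.05 with LPS plus DSF. Under IL-4+anti-CD40 it was at 6.53, 6.37, 3.77 and 3.11, and with DSF at 0.971, 1.05, 1.02 and 0.881. No library with DSF overlapped the vehicle libraries, in which 3 and 4 were lower than 1 and 2. The fall was 5.63-fold with LPS and 5.11-fold under IL-4+anti-CD40 (log2 -2.49, SE 0.10, and -2.35, SE 0.23; edgeR adjusted p = 2.18e-17 and 6.12e-06). Within libraries 1 and 2 the log2 values of Slc39a10 were -2.65 and -2.69, and within libraries 3 and 4 they were -2.35 and -1.87. In the second experiment Slc39a10 was 3.68-fold and 3.62-fold lower with DSF, and the log2 ratio with ibrutinib was -0.42 and -0.29. Slc39a3 fell further there, 4.49-fold with LPS plus DSF and 4.15-fold under IL-4+anti-CD40 and DSF.

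Slc39a4, another plasma membrane importer, rose 5.42-fold with LPS and 2.79-fold under IL-4+anti-CD40 (edgeR adjusted p = 8.14e-18 and 2.93e-05). Its vehicle libraries were at 1.41 to 1.52 FPKM with LPS and at 2.02 to 3.57 under IL-4+anti-CD40, and its DSF libraries at 7.47 to 8.23 and 7.21 to 8.15. The ranges with DSF overlapped and those without it did not, and the DSF effects differed by 0.95 on the log2 scale (SE 0.20, edgeR adjusted p = 0.0029). The log2 values of Slc39a4 were 2.39 with LPS and 1.89 under IL-4+anti-CD40 in libraries 1 and 2 and 2.45 and 1.18 in libraries 3 and 4, all past the threshold. The single libraries of the second experiment put Slc39a4 1.52-fold and 1.83-fold higher with DSF and 1.38-fold and 1.58-fold higher with ibrutinib. Slc39a6 rose 1.61-fold and 1.60-fold (adjusted p = 6.89e-13 and 9.54e-06) and Slc39a13 rose 1.68-fold and 1.25-fold (adjusted p = 2.3e-07 and 0.029). The rise of Slc39a13 under IL-4+anti-CD40 was lost without library 1 or 2 of the vehicle group or library 2, 3 or 4 of the DSF group (adjusted p from 0.0554 to 0.0737) and with total counts (log2 0.17, adjusted p = 0.223). Among those that fell were Slc39a2 (2.35-fold and 3.69-fold, adjusted p = 0.00121 and 0.000607), at no more than 35 reads in any library, Slc39a5 with LPS (1.99-fold, adjusted p = 0.00921), Slc39a14 (1.51-fold with LPS and 1.90-fold under IL-4+anti-CD40, adjusted p = 3.93e-09 and 2.45e-06) and Slc39a3 (1.71-fold and 1.55-fold, adjusted p = 9.64e-09 and 1.52e-05).

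**Figure D5:**
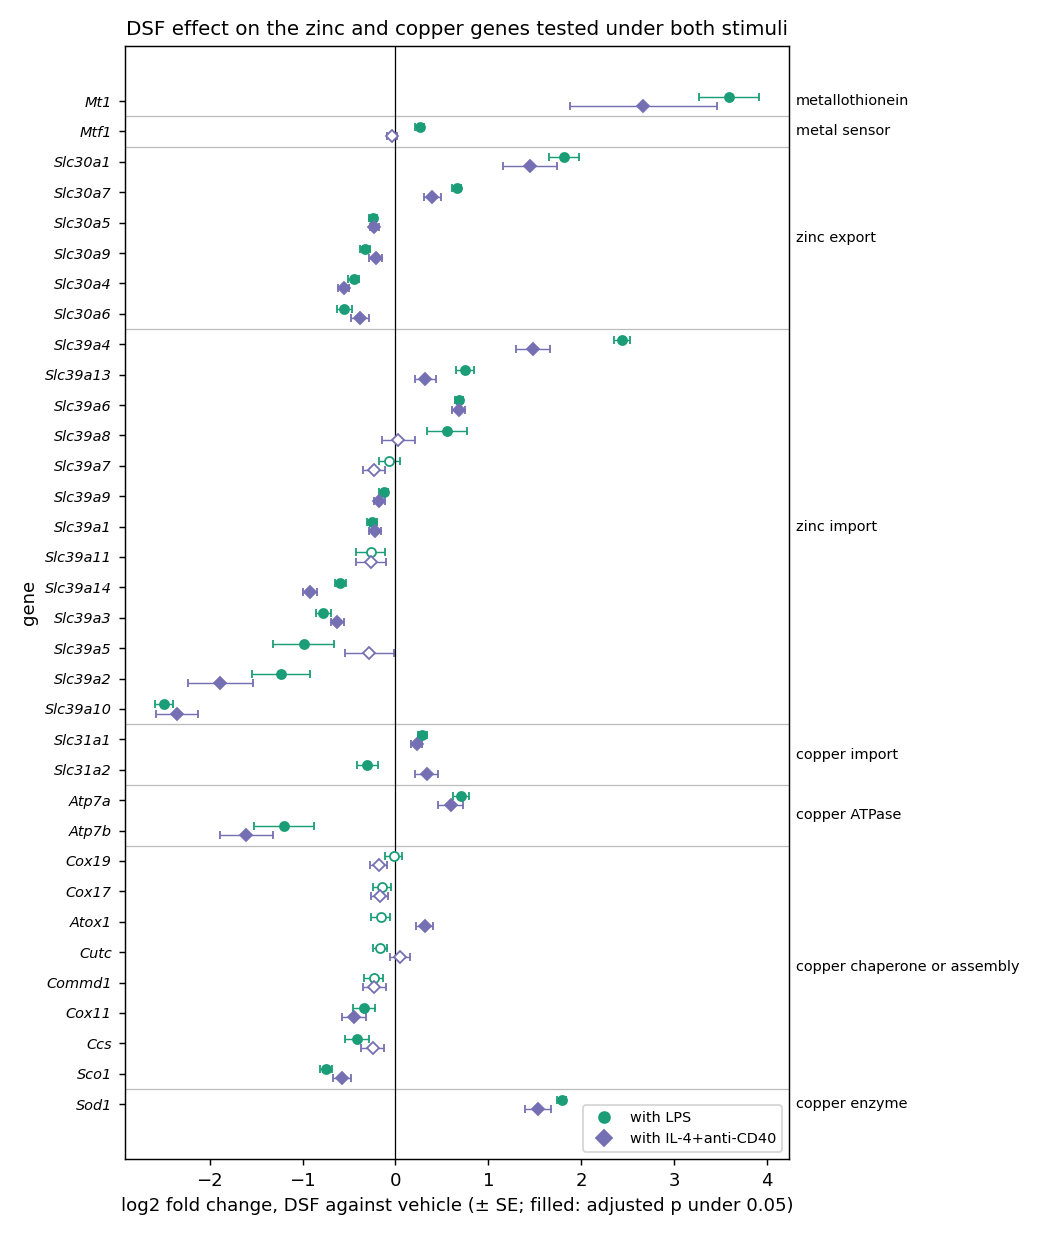
DSF effect on the listed zinc and copper genes tested under both stimuli, as log2 fold change against vehicle with SE, for LPS (circles) and IL-4+anti-CD40 (diamonds), filled where the adjusted p is under 0.05 and grouped by role. Mt1, Slc39a4, Slc30a1 and Sod1 lie farthest above 0 and Slc39a10 farthest below 0, with Slc39a2 and Atp7b next.

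On the copper side, the ATPase gene Atp7b fell while Atp7a rose. Atp7b fell 2.30-fold with LPS and 3.04-fold under IL-4+anti-CD40 (edgeR adjusted p = 0.00207 and 0.000489), from 18 to 52 reads per vehicle library to 7 to 19 with DSF. Sod1, the copper and zinc superoxide dismutase, rose 3.46-fold with LPS, from 28.2 to 30.7 FPKM to 91.5 to 106 (adjusted p = 5.93e-21), and 2.89-fold under IL-4+anti-CD40, from 28.7 to 46.1 FPKM to 99.9 to 117 (adjusted p = 3.84e-06). In libraries 1 and 2 the log2 values of Sod1 were 1.72 and 1.73, and in libraries 3 and 4 they were 1.82 and 1.39. Sod1 was 1.84-fold and 2.01-fold higher with DSF in the second experiment. Of 8 tested genes of copper chaperones and assembly factors, 3 fell and none rose with LPS (Ccs, Sco1 and Cox11). Under IL-4+anti-CD40, 2 fell (Sco1 and Cox11) and 1 rose (Atox1). Of all genes, 36.0% fell and 35.1% rose with LPS, and 31.6% and 30.1% under IL-4+anti-CD40. Cox11 shares 48.3% of its exonic bases with a gene on the opposite strand. Slc31a2, related in sequence to the copper importer, fell 1.24-fold with LPS and rose 1.26-fold under IL-4+anti-CD40 (adjusted p = 0.0186 and 0.0325). Under IL-4+anti-CD40 this call of Slc31a2 was lost without library 1, 2 or 3 of the vehicle group or library 2, 3 or 4 of the DSF group (adjusted p from 0.0517 to 0.105) and with total counts (log2 0.19, adjusted p = 0.217). Cp, the ferroxidase ceruloplasmin, fell 1.88-fold with LPS (adjusted p = 0.0253), at no more than 38 reads in any library, and was not past the threshold without LPS library 1 (adjusted p = 0.162) or LPS plus DSF library 3 (adjusted p = 0.0782).

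Stimulation without DSF moved other listed genes. LPS raised 17 of 35 tested genes and lowered 5 (29.6% and 33.3% of all genes). Under IL-4+anti-CD40, 15 rose and 5 fell (30.4% and 32.1% of all genes). List medians were 0.18 and 0.34 on the log2 scale against -0.05 and -0.04 for all genes. Sco1, an assembly factor of cytochrome c oxidase, rose 2.82-fold with LPS and 1.92-fold under IL-4+anti-CD40 (edgeR adjusted p = 3.01e-07 and 6.66e-05). The ZIP genes Slc39a14 (2.77-fold and 2.76-fold), Slc39a6 (2.24-fold and 3.43-fold) and Slc39a7 (1.49-fold and 1.86-fold) rose with both, Slc39a10 rose 1.501-fold with LPS, and the ZnT gene Slc30a4 rose 1.27-fold with LPS and 3.33-fold under IL-4+anti-CD40. Slc39a7 shares 2084 exonic bases with another gene on its strand. The NS libraries of Slc39a14 and Slc39a6 were themselves apart, with libraries 3 and 4 at 0.425 and 0.544 of libraries 1 and 2. The copper chaperone genes Atox1 (1.85-fold and 2.02-fold) and Ccs (1.61-fold and 1.55-fold) fell with both stimuli, as did Slc39a11 (1.71-fold and 1.75-fold), whose groups overlapped and whose calls were lost without NS library 3 or 4 or LPS library 1, 2 or 3 for LPS, and without NS library 4 or IL-4+anti-CD40 library 3 or 4 for IL-4+anti-CD40 (adjusted p from 0.0513 to 0.0699). Slc39a13 (1.87-fold) and Slc30a5 (1.15-fold) fell with LPS, and Cp (2.84-fold) and Cutc (1.55-fold) under IL-4+anti-CD40, while with LPS Cutc rose 1.23-fold (edgeR adjusted p = 0.0408). The rises of Slc30a4 (adjusted p = 0.046) and Cutc with LPS were lost with total counts (log2 0.11 and 0.08, adjusted p = 0.542 and 0.508). They were also lost without any 1 of the LPS libraries and, for Slc30a4, without NS library 3 or 4 and, for Cutc, without NS library 1, 2 or 3 (adjusted p from 0.0555 to 0.109).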

How the data were processed

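RNA-seq libraries of 27 samples were analysed. According to the study's methods and notes, poly-A RNA was sequenced on a NovaSeq 6000, reads were trimmed with Fastp, aligned to mm10 with HISAT2 2.0.5 and counted with featureCounts 1.5.0-p3. The deposited values were raw read counts per gene, and FPKM that the authors computed from gene length and counts; the strand setting is not given in the sources used here. Groups came from the labels. Library totals were 17804851 to 23632992 (20 libraries) and 16049295 to 24619776 (7 libraries). The study describes the 4 samples of a group as independent, and whether same-numbered samples share a mouse is not given, so p-values measure the spread between these samples.

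Counts were tested with edgeR 4.0.16 (R 4.3.3) by the quasi-likelihood test with TMM scaling and filterByExpr on the whole table, with Benjamini-Hochberg adjustment over all genes tested and a threshold of 0.05, on the 8 libraries of each pair of groups, or on 16 for the difference of DSF effects. Alternatives were DESeq2 1.42.0, other scalings and filters, the replicate number as a block, a minimum log2 fold change of 1, all 20 libraries in one fit, each library left out, and libraries 1 and 2 or 3 and 4 alone. The procedure was checked on simulated counts with the same dispersion for every gene and group and with independent libraries. This check does not cover groups of unequal spread or the split of libraries seen for Mt1, Slc30a1 and other listed genes. Across all genes, few same-numbered libraries deviated together: 3 of 40 pairs had a correlation over 0.1. Single genes could differ from this: Mt1, Slc30a1 and Slc39a10 each shifted the same way in libraries 3 and 4 of both vehicle groups. In the second experiment, ratios used a prior count of 2 and genes with a mean of 10 counts or more, with exact binomial counting intervals. PCR duplicates are not independent molecules, so intervals cover counting error only.

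The members and lists were chosen with earlier results of these data known. Named were the 6 genes, per comparison and direction up to 5 list genes with the largest change among those called with a mean of 10 counts or more, list genes at 0, and the genes most alike in pattern (5 for Mt1, 3 for the others). List genes named in counts of 5 or fewer were named after their values were seen, as were the effects under the other stimulus for Slc39a3, Slc39a13, Slc39a14, Slc30a4 and Cutc. Exonic overlaps came from GENCODE vM21, where 98.0% of 54495 matched genes had the deposited length. Promoters were from RefSeq (GRCm38.p6), which held all 6 genes.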

Additional observations from a re-analysis of the deposited data

Results flagged for a closer look

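Of 134 groups of 4 libraries over 27 genes, 8 had a library far from the other 3 by Dixon's criterion, where chance gives about 1 in 20. For Mt2 these were the highest libraries with LPS (0.0932 FPKM), under IL-4+anti-CD40 (0.0885) and under IL-4+anti-CD40 and DSF (0.542), which held 1, 1 and 7 reads. The others were the highest library of Atox1 under IL-4+anti-CD40 and DSF (27.7 FPKM), of Sco1 with LPS (11.2), of Slc31a2 with LPS and DSF (6.52) and of Slc39a11 with LPS and DSF (1.11), and the lowest of Slc39a13 with LPS and DSF (2.79).

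The DSF effect differed between the stimuli in edgeR's interaction test for 5 of the 35 listed genes tested, beside 14.9% of all genes. The difference, LPS minus IL-4+anti-CD40 on the log2 scale, was 0.29 for Mtf1, 0.95 for Slc39a4, 0.33 for Slc39a14, -0.65 for Slc31a2 and -0.48 for Atox1.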

How the results depend on the processing

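Of 333 recomputed counts of genes, 296 stayed within 1.5 times the reported count. No count moved further when 1 library was left out, where the counts of the 6 genes called stayed at 1 for the difference of the DSF effects between the stimuli. With a minimum log2 fold change of 1, the genes called among the 6 became 0 for LPS, 0 for IL-4+anti-CD40, 2 for DSF with LPS, 0 for DSF with IL-4+anti-CD40, 2 for each DSF group against NS, 0 for LPS against IL-4+anti-CD40, 0 for the same with DSF and 0 for the difference of DSF effects. The list counts, higher and lower, then became 1 and 0 for LPS, 2 and 0 for IL-4+anti-CD40, 4 and 1 for DSF with LPS and 2 and 1 for DSF with IL-4+anti-CD40.

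Scaled by total counts, LPS raised 9 listed genes and DSF with LPS called 3 of the 5 tested members. DSF with IL-4+anti-CD40 raised 7 and lowered 20 listed genes, and LPS against IL-4+anti-CD40 called 2 of the 5. The median of all genes was then -0.27 for LPS, -0.19 for IL-4+anti-CD40, -0.21 for DSF with LPS and -0.16 for DSF with IL-4+anti-CD40, and the genes higher and lower were 2903 and 6387, 3454 and 5574, 3473 and 6680, and 3262 and 5832. Against NS with IL-4+anti-CD40 and DSF, Atp7a was at 0.30 (edgeR adjusted p = 0.119). With no filter on low counts LPS against IL-4+anti-CD40 and the difference of DSF effects each called 0 of the 6. With all 20 libraries in one fit both comparisons of the stimuli, without and with DSF, called 0.

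Across all genes 11 of 40 pairings had a library correlate best with its own number, and whether same-numbered libraries share a mouse is not given. With the replicate number as a block, LPS against IL-4+anti-CD40 called 2 of the 5 tested genes, and the rise of Mt1 with IL-4+anti-CD40 was 1.98 (edgeR adjusted p = 0.153). With libraries 1 and 2 alone, LPS called 4 of the 5 tested genes (66.7% of all genes). IL-4+anti-CD40 lowered 8 listed genes, where 5290 of all 14687 fell. LPS against IL-4+anti-CD40 called 2 of the 5 (45.8% of all), the same with DSF 2 (32.2%) and the difference of DSF effects 0 (13.8%). The effect of IL-4+anti-CD40 on Mt1 turned to -0.17. With libraries 3 and 4 alone, LPS called 5 of the 5 (72.6% of all genes) and IL-4+anti-CD40 5 (72.1%). DSF with IL-4+anti-CD40 raised 7 listed genes, where 3648 of all 14709 rose. LPS against IL-4+anti-CD40 called 2 of the 5 (35.6% of all) and the difference of DSF effects 3 (14.4%). Of all genes, 59.7% and 61.8% were called in libraries 1 and 2 for the DSF effects under LPS and under IL-4+anti-CD40, against 63.2% and 48.9% in libraries 3 and 4. These were chosen after seeing the data, and the cause was not tested. In the second experiment the genes past 2-fold stayed at 3 and 3 with DSF and at 0 and 0 with ibrutinib under every alternative run. Without replicates there, and with at most 7 reads of Mt2, depth limits what can be said of both.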
